A study of Mus musculus with 27 samples.

Results

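Histone genes were described in 27 RNA-seq libraries of cells given as mouse haematopoietic stem and progenitor cells (HSPCs), from liver, marrow and another source. The markers of the E12.5 PL libraries, given below, do not bear out that name. Members were chosen by symbol: every Hist1 to Hist4 cluster gene in the expression matrix, and the 8 genes H2afx, H2afz, H2afy, H2afv, H3f3a, H3f3b, H1f0 and H1fx. This gave 74 genes among 24418 entries, of which 66 are cluster genes (6 for H1, 18 for H2A, 17 for H2B, 12 for H3 and 13 for H4); 1 entry marked as a pseudogene was left out. The libraries came from C57BL/6 mice with no genetic change or treatment in the labels, and formed 9 groups of 3. The embryonic groups were E12.5 PL and E12.5 FL, of the same embryonic day, and E16.5 FL, of a later day. Marrow gave a group named Perinatal BM and groups from mice of 1, 3, 4, 6 and 8 weeks (1w BM to 8w BM). Here FL is taken as fetal liver and BM as bone marrow; the labels do not say what PL stands for. The labels do not name the surface markers used for purification, nor do they state whether the libraries of a group came from separate animals or pools, so the p-values measure the spread between these libraries, which may be technical.

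Histones package DNA into nucleosomes. Pairs of H2A, H2B, H3 and H4 form the core particle, and H1 binds the linker DNA between particles. The clustered genes are mostly transcribed while DNA is replicated, and their mRNAs end in a stem-loop bound by SLBP in place of a poly(A) tail. The replacement variants come from single genes outside the clusters, and are mostly made throughout the cell cycle from polyadenylated mRNAs. H2afx differs from the other variants here in that its annotated transcript holds a stem-loop. The labels name a TruSeq RNA preparation kit and total RNA; whether poly(A) RNA was selected is not given in the sources used here. Its part in the levels of the cluster genes was not tested.

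In the GENCODE annotation of GRCm38, 53 of the 66 cluster genes lay on chromosome 13 between positions 21715763 and 23934851, 10 on chromosome 3 between 96219865 and 96270132, 2 on chromosome 11 and 1 on chromosome 6. A single exon was annotated for 62 of them. The stem-loop, searched on the transcript strand as GG, any 2 bases, CTT, any base, T, any base, AG, any 2 bases and CC, in the 3′ untranslated region of the longest coding transcript, was found in 45 cluster genes and in 1 of the 8 variants, H2afx. Among all 21901 protein-coding genes, 136 (0.621%) held a match anywhere in any of their protein-coding transcripts, which is a wider search than that for the members. Of the 21 cluster genes without a match, 17 had fewer than 60 bases annotated after the stop codon. The stem-loops of the members that the results turn on are shown here because they set cluster genes apart from the variants other than H2afx. The loop and both arms are in capitals, with 5 bases on each side (GENCODE release 21 for mouse, transcript strand).

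Hist1h2bb: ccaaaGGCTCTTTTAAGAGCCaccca
Hist1h1c: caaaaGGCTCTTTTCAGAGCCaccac
Hist3h2a: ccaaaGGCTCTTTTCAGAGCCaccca
Hist2h2ac: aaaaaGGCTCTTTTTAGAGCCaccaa
Hist1h4i: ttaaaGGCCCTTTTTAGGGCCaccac
H2afx: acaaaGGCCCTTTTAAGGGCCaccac

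The core shown for Hist1h1c and Hist3h2a occurred in 25 cluster genes of the H1, H2A, H2B and H3 classes. The core of Hist1h2bb occurred in 6 genes, that of Hist2h2ac in that gene alone, and that of Hist1h4i in 2 H4 genes. H4 genes had cores of their own: 12 of the 13 H4 genes held one, and 7 of these read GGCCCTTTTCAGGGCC. In 23 of the 45 genes at least 100 bases were annotated after the stem-loop.

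RefSeq promoters (250 bases before to 50 after the annotated start, GRCm38.p6) were matched for 60 cluster genes and 7 variants, and 4 were chosen to show how the classes differ. Capitals mark TATAAA, the core of the TATA box; CCAAT; ATTTGCAT, the octamer known from H2B promoters; and AAACACA, known from H1 promoters. Each was searched on both strands, so that a reversed match appears as its complement.

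Hist1h2bb, chr13:23746484-23746783, plus strand: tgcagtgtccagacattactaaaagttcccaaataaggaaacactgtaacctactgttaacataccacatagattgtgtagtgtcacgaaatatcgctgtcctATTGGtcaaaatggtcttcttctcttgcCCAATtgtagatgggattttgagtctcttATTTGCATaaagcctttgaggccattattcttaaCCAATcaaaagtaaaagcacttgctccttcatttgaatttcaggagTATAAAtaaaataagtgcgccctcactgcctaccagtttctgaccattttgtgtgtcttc
Hist1h1c, chr13:23738557-23738856, plus strand: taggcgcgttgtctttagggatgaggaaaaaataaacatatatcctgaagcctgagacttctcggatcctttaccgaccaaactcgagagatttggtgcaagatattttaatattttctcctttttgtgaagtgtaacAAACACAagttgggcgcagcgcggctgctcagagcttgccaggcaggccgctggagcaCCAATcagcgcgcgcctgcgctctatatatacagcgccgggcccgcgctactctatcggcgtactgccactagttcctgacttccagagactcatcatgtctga
Hist1h3c, chr13:23745472-23745771, minus strand: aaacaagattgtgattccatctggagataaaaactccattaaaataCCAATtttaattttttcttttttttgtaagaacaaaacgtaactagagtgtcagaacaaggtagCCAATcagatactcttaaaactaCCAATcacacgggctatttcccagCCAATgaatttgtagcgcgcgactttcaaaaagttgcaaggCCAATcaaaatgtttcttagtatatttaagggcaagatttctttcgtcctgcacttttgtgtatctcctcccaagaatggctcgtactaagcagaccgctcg
Hist1h4i, chr13:22041313-22041612, minus strand: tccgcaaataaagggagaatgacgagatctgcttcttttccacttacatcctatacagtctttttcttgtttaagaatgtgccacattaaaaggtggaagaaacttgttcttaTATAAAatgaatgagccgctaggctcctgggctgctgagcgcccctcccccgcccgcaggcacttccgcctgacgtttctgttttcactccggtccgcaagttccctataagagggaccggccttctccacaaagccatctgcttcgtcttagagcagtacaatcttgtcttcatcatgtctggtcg

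TATAAA was found in 58.3% of the 60 cluster promoters and in 13.6% of all 32851 RefSeq promoters. CCAAT was found in every matched H1, H2A, H2B and H3 promoter but in 25% of the 12 H4 promoters, against 37.4% of all promoters. The octamer was found in 38.9% of H2A and 42.9% of H2B promoters, in 0 of the H1, H3 and H4 promoters, and in 1.74% of all promoters. AAACACA was found in 5 of 6 H1 promoters, against 7.18% of all promoters. These matches describe the letters in the window only.

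The matrix holds FPKM values (fragments per kilobase, scaled to the library's mapped fragments), so levels of different genes can be set side by side per length, but the read depth is unknown and no counting error can be given. Total FPKM per library was 519810 to 763033. From the steps between low values, relative depth differed between 0.688 and 1.65 over the 24 libraries outside E12.5 PL. Of these, the E12.5 FL libraries were the deepest, at 1.43, 1.65 and 1.49, against 1.1, 0.973 and 0.973 in E16.5 FL. Depth and stage therefore cannot be told apart between these groups. The estimates are rough, since the most common step held 4.39, 2.08 and 2.91% of the low genes in E12.5 FL. An exact 0 in such a file can be a low count or a failed estimate, so a gene is only said to be listed at 0. Pearson correlations of log2(FPKM + 1) between libraries of 1 group were 0.979 to 0.995. All 10 HSPC markers averaged at least 1 FPKM in every group, and their sum was 309.9 to 441 FPKM in E12.5 PL libraries, against 1093 to 1133 in E12.5 FL. All 10 trophoblast markers were at 1 FPKM or more in E12.5 PL and summed to 3348 to 3622 FPKM, against 19.1 to 21.1 in E12.5 FL, where Hand1 was listed at 0. The stroma sum was 783 to 2421 FPKM and the endothelial sum 734 to 960 FPKM in E12.5 PL. In each E12.5 PL library the trophoblast, stroma and endothelial sums were above the HSPC sum. The name HSPC is therefore not borne out by these markers in E12.5 PL, and its differences from E12.5 FL are not differences between HSPCs alone. In these bulk samples, fewer cells of a type and less RNA per cell cannot be told apart.

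The 8 variants made up most of the histone signal. Their summed level averaged 2797 FPKM in E12.5 PL and between 3523 (8w BM) and 3952 (6w BM) in the other 8 groups. The 66 cluster genes together accounted for 0.034 to 0.118% of the total FPKM of a library. Their summed level was 221, 230.2 and 308 FPKM in E12.5 PL, 418, 395 and 315 in E12.5 FL, and 592, 612 and 489 in E16.5 FL. It was 219, 201 and 344 FPKM in Perinatal BM, 428, 379 and 345 in 1w BM, and 541, 554 and 580.0 in 3w BM. The 3 oldest groups had 609, 626 and 593 FPKM in 4w BM, 466, 619.8 and 473 in 6w BM, and 456, 346 and 484 in 8w BM. By their means, 4w BM, E16.5 FL and 3w BM were the highest groups and E12.5 PL and Perinatal BM the lowest. All 3 Perinatal BM libraries lay below all 3 E16.5 FL libraries, and Perinatal BM replicate 3 lay close to the lowest 1w BM library. The order changed without the 4 highest cluster genes (Hist1h4i, Hist1h2bc, Hist1h1c and Hist3h2a). The means were then 366 FPKM in 4w BM, 362 in 3w BM, 326 in 6w BM, 276 in E16.5 FL and 274 in 8w BM. They were 262 FPKM in 1w BM, 132 in E12.5 FL, 103 in E12.5 PL and 103 in Perinatal BM. Perinatal BM replicate 3 then had 142 FPKM, against 233 in the lowest 1w BM library.

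**Figure D1:**
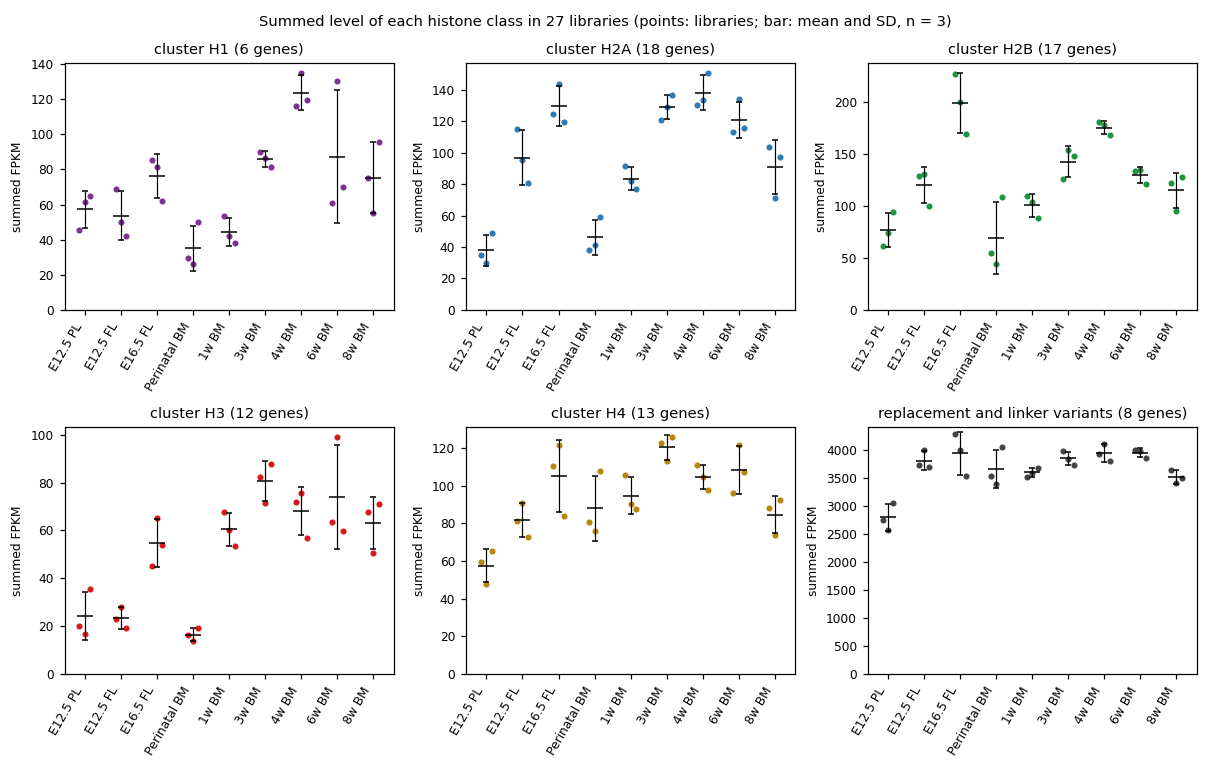
Summed FPKM (vertical axes, from 0) of each of 5 cluster classes and of the 8 variants in 9 groups (horizontal axes); points are single libraries and bars the mean and SD of 3. H1, H2A, H2B and H3 sums are low in Perinatal BM and high in 3w and 4w BM. By mean, the H2B sum is highest in E16.5 FL (199 FPKM, against 175 in 4w BM). The H2A sum is lowest in E12.5 PL (37.8 FPKM, against 46.3 in Perinatal BM). The variant sum is lower in E12.5 PL than in the other groups.

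Among the cluster genes 3 were listed at 0 in every library (Hist1h2ba, Hist2h3c1 and Hist2h3c2), and 11, these included, never reached 1 FPKM. The other 63 members, 55 cluster genes and the 8 variants, passed the filter of at least 1 FPKM in at least 3 libraries and were tested. The coding sequences of the clusters resemble each other. Of the 66 cluster genes, 62 shared at least 1 run of 50 bases with a transcript of another gene, and 33 shared at least 50% of such windows. Transcripts of all annotated genes were searched on both strands, so genes that overlap in position, such as Hist1h1e and Hist1h2be, count as well. How reads were divided among the copies is not given in the sources used here, so the split between such genes is uncertain. Hist1h1a, Hist1h1b, Hist1h1t and Hist2h2be shared no window. Among the variants, H2afz shared 69.6% of its windows and H3f3a 30.3%.

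H3f3a (chromosome 1, 180800832 to 180813943, minus strand) and H3f3b (chromosome 11, 116021912 to 116027962, minus strand) both encode the H3.3 protein, which is deposited independently of replication. H3f3a had 682, 591 and 683 FPKM in E12.5 PL, 991, 1135 and 969.8 in E12.5 FL, and 1481, 1336 and 1204 in E16.5 FL. H3f3a stood at 1041, 967 and 1248 FPKM in Perinatal BM, 936, 932 and 1026 in 1w BM, and 1074, 1108 and 988 in 3w BM. At the older ages H3f3a had 1043, 1078 and 1012 FPKM in 4w BM, 1090.3, 953 and 1015 in 6w BM, and 959, 877 and 898 in 8w BM. H3f3a was lowest in E12.5 PL and highest in E16.5 FL, with no overlap between those groups and E12.5 FL. H3f3b had 795, 730.2 and 841 FPKM in E12.5 PL, 594, 538 and 504 in E12.5 FL, and 726, 618 and 522 in E16.5 FL. Next, H3f3b showed 596, 587 and 691 FPKM in Perinatal BM, 551, 581 and 557 in 1w BM, and 732, 690.1 and 699 in 3w BM. H3f3b ended with 749, 822 and 697 FPKM in 4w BM, 695, 1065 and 718 in 6w BM, and 504, 465 and 755 in 8w BM. The highest value, that of 6w BM replicate 2, stood apart from the other libraries of its group.

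H2afz (chromosome 3, 137864487 to 137866922, plus strand) and H2afv (chromosome 11, 6427229 to 6444443, minus strand) encode the 2 forms of H2A.Z, a variant found around transcription starts. H2afz had 807, 803 and 1014 FPKM in E12.5 PL, 829, 913 and 899.9 in E12.5 FL, and 642, 667 and 558 in E16.5 FL. H2afz then had 691, 629 and 732 FPKM in Perinatal BM, 699, 730.4 and 752 in 1w BM, and 766, 685 and 675 in 3w BM. Older marrow gave H2afz levels of 616, 688 and 587 FPKM in 4w BM, 673, 560.3 and 632 in 6w BM, and 669, 599 and 581 in 8w BM. All E12.5 libraries of either source were higher than every later library. H2afv was lower than H2afz in every library, with group means between 66.6 FPKM in 3w BM and 83.7 FPKM in Perinatal BM. Its values were 65.6, 60.5 and 77.8 FPKM in E12.5 PL, 79.3, 82.6 and 75.4 in E12.5 FL, and 88.98, 79.7 and 72.5 in E16.5 FL. H2afv stood at 85.7, 77.4 and 87.9 FPKM in Perinatal BM, 78.3, 79.4 and 81.4 in 1w BM, and 67.1, 73.2 and 59.4 in 3w BM. For the 3 oldest groups H2afv gave 67.6, 72.8 and 78.5 FPKM in 4w BM, 74.3, 60.1 and 69.9 in 6w BM, and 72.3, 70.9 and 63.6 in 8w BM. The 3w, 4w, 6w and 8w BM values overlapped one another.

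H2afx (chromosome 9, 44334694 to 44336077, plus strand) encodes the H2A.X protein, which is phosphorylated at DNA breaks. H2afx had 105, 113 and 128 FPKM in E12.5 PL, 183, 207 and 199 in E12.5 FL, and 236, 248 and 197 in E16.5 FL. Next, H2afx showed 176, 164 and 199 FPKM in Perinatal BM, 201, 208 and 236 in 1w BM, and 217, 202 and 217 in 3w BM. H2afx later gave 202, 231 and 208 FPKM in 4w BM, 211, 204 and 204 in 6w BM, and 222, 189.7 and 178 in 8w BM. H2afx was lowest in E12.5 PL. It was the 1 variant of 8 that did not pass the test for differences among the other 8 groups (limma moderated F-test, adjusted p = 0.0853).

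H2afy (chromosome 13, 56073619 to 56136361, minus strand) encodes macroH2A1, a variant with a large extra domain that is known from silent chromatin such as the inactive X chromosome. H2afy had 182, 130.4 and 165 FPKM in E12.5 PL, 977, 1036 and 964 in E12.5 FL, and 988, 935 and 859 in E16.5 FL. H2afy then had 822, 858 and 976 FPKM in Perinatal BM, 941, 939 and 915 in 1w BM, and 1038, 1009 and 1023 in 3w BM. At the older ages H2afy had 1146, 1123 and 1116 FPKM in 4w BM, 1192, 1055 and 1144 in 6w BM, and 1135, 1119 and 957 in 8w BM. Every E12.5 PL library was far below every other library, and the 4w BM libraries were above all E12.5 FL and E16.5 FL libraries.

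H1f0 (chromosome 15, 79028450 to 79030504, plus strand) encodes H1.0, a linker histone known to accumulate in cells that have stopped dividing. H1f0 had 104, 121 and 129.8 FPKM in E12.5 PL, 54.3, 55.3 and 50.9 in E12.5 FL, and 58.5, 58.004 and 59.2 in E16.5 FL. H1f0 stood at 59.04, 53.1 and 68.97 FPKM in Perinatal BM, 56.6, 52.6 and 50.3 in 1w BM, and 30.5, 27.02 and 27.3 in 3w BM. H1f0 ended with 38.6, 38.2 and 42.6 FPKM in 4w BM, 29.6, 25.7 and 26.8 in 6w BM, and 33.5, 34.9 and 31.7 in 8w BM. The levels fell into 3 ranges that did not overlap: E12.5 PL was the highest, the E12.5 FL to 1w BM libraries lay between, and all 3w to 8w BM libraries were the lowest. H1fx (chromosome 6, 87980421 to 87981637, minus strand) encodes H1.10, another linker histone made outside S phase. H1fx had 18.2, 20.1 and 22.8 FPKM in E12.5 PL, 27.8, 34.7 and 31.4 in E12.5 FL, and 66.6, 61.7 and 64.002 in E16.5 FL. Next, H1fx showed 60.3, 65.8 and 49.7 FPKM in Perinatal BM, 64.8, 64.9 and 65.1 in 1w BM, and 52.7, 46.1 and 48.95 in 3w BM. Older marrow gave H1fx levels of 61.3, 64.9 and 56.5 FPKM in 4w BM, 44.8, 60.5 and 54.6 in 6w BM, and 55.4, 53.7 and 46.5 in 8w BM. Both E12.5 groups were below every later library.

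**Figure D2:**
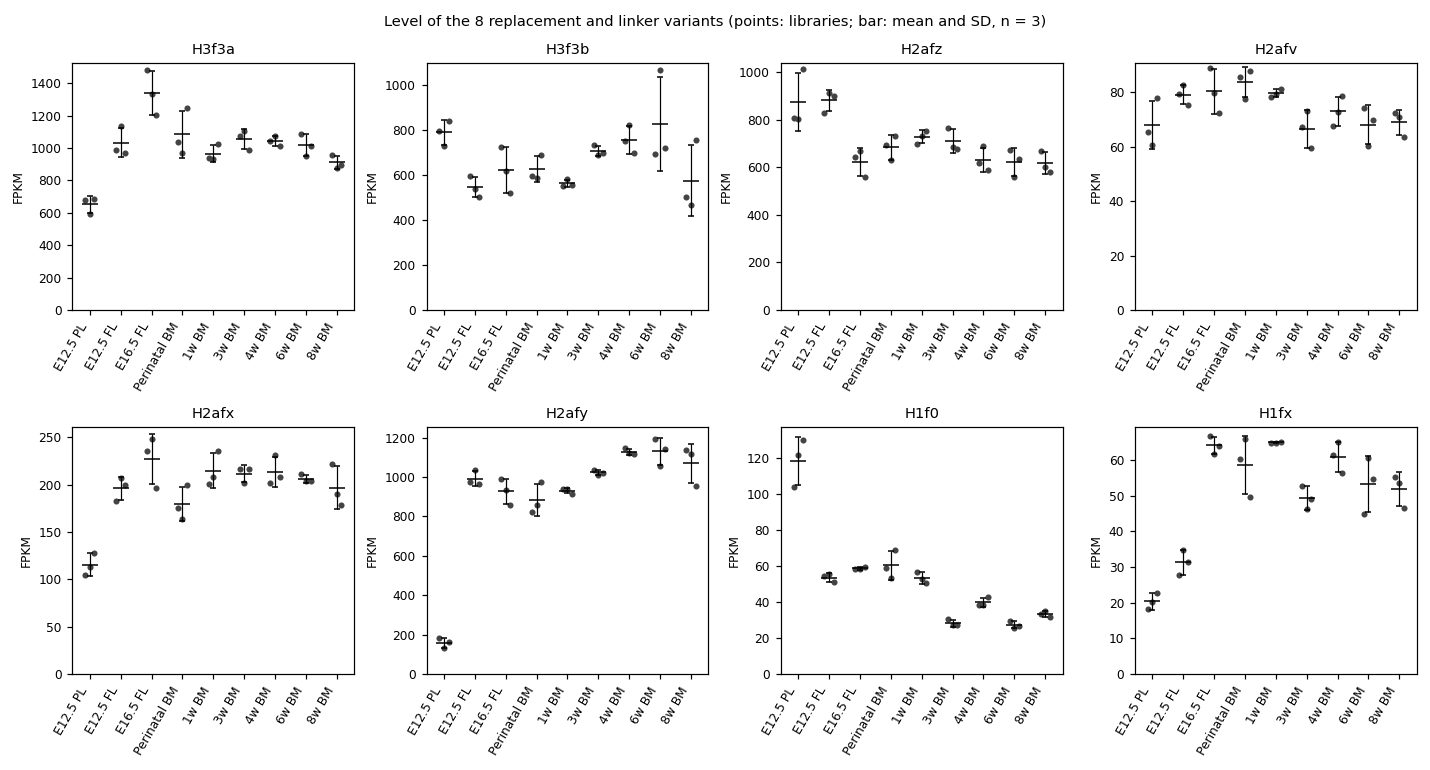
FPKM (vertical axes, from 0) of the 8 variants in 9 groups (horizontal axes); points are single libraries and bars the mean and SD of 3. H2afy is far lower and H1f0 higher in E12.5 PL than in any other group, and H1f0 is lower from 3w BM on than in E12.5 FL to 1w BM.

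The 10 cluster genes with the highest mean over all libraries differed in their course. Hist1h4i, an H4 gene on chromosome 13 (22040636 to 22041362, minus strand), averaged 58.9 FPKM. It had 39.9, 27.6 and 41.5 FPKM in E12.5 PL, 61.6, 72.3 and 55.8 in E12.5 FL, and 77.9, 90.7 and 60.2 in E16.5 FL. Hist1h4i then had 68.4, 56.97 and 86.8 FPKM in Perinatal BM, 53.1, 55.7 and 51.1 in 1w BM, and 69.2, 59.3 and 72.9 in 3w BM. The later libraries had 58.8, 62.9 and 41.5 FPKM in 4w BM, 51.2, 69.4 and 66.6 in 6w BM, and 42.8, 40.3 and 55.7 in 8w BM. The E12.5 PL libraries were among the lowest, and the Perinatal BM libraries overlapped those of E16.5 FL and of 3w BM.

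Hist1h2bc, an H2B gene (chromosome 13, 23684199 to 23692908, plus strand), had 38.8, 52.7 and 64.3 FPKM in E12.5 PL, 69.5, 69.7 and 52.6 in E12.5 FL, and 120.0, 92.7 and 77.3 in E16.5 FL. Hist1h2bc stood at 25.2, 18.6 and 45.8 FPKM in Perinatal BM, 31.98, 29.7 and 23.3 in 1w BM, and 46.4, 52.8 and 39.9 in 3w BM. Hist1h2bc later gave 51.2, 61.4 and 63.4 FPKM in 4w BM, 46.01, 34.5 and 36.1 in 6w BM, and 33.95, 26.1 and 45.9 in 8w BM. Every marrow library was below every E16.5 FL library. Hist1h2bg, also an H2B gene, had 4.48, 2.36 and 6.99 FPKM in E12.5 PL, 21.7, 21.4 and 15.5 in E12.5 FL, and 32.7, 23.9 and 14.9 in E16.5 FL. Next, Hist1h2bg showed 4.04, 0.944 and 9.52 FPKM in Perinatal BM, 7.85, 10.4 and 8.42 in 1w BM, and 22.7, 20.5 and 21.3 in 3w BM. At the older ages Hist1h2bg had 48.1, 45.2 and 27.7 FPKM in 4w BM, 32.3, 28.8 and 22.5 in 6w BM, and 21.9, 17.1 and 16.7 in 8w BM. Hist1h2bg was lowest in E12.5 PL and Perinatal BM. Hist1h2bj, a further H2B gene, had 5.27, 4.47 and 3.35 FPKM in E12.5 PL, 3.63, 5.55 and 3.56 in E12.5 FL, and 9.89, 14.1 and 14.4 in E16.5 FL. Hist1h2bj then had 5.01, 2.12 and 8.52 FPKM in Perinatal BM, 12.6, 13.7 and 9.95 in 1w BM, and 16.3, 21.5 and 21.6 in 3w BM. Hist1h2bj ended with 19.4, 17.4 and 16.2 FPKM in 4w BM, 7.36, 20.3 and 6.46 in 6w BM, and 11.2, 9.58 and 16.503 in 8w BM. The E16.5 FL and Perinatal BM libraries did not overlap, and 6w BM replicate 2 was well above the other 2 libraries of its group.

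Hist1h1c encodes the linker histone H1.2 (chromosome 13, 23738808 to 23740367, plus strand). Hist1h1c had 36.8, 50.01 and 48.9 FPKM in E12.5 PL, 59.9, 42.5 and 36.6 in E12.5 FL, and 63.3, 52.5 and 33.4 in E16.5 FL. Hist1h1c stood at 23.7, 18.6 and 37.9 FPKM in Perinatal BM, 18.1, 17.7 and 17.04 in 1w BM, and 40.7, 43.9 and 34.5 in 3w BM. Older marrow gave Hist1h1c levels of 66.1, 94.2 and 76.9 FPKM in 4w BM, 35.3, 69.3 and 35.1 in 6w BM, and 41.996, 26.9 and 50.96 in 8w BM. Hist1h1c was lowest in 1w BM and highest in 4w BM, and 6w BM replicate 2 again stood above its group. Hist1h1a encodes H1.1 (chromosome 13, 23763666 to 23764406, plus strand) and shared no window with another gene. Hist1h1a had 2.84, 5.51 and 6.399 FPKM in E12.5 PL, 3.504, 2.72 and 2.498 in E12.5 FL, and 12.2, 14.5 and 13.3 in E16.5 FL. Next, Hist1h1a showed 2.06, 3.05 and 4.72 FPKM in Perinatal BM, 12.6, 8.48 and 9.07 in 1w BM, and 18.3, 18.5 and 16.3 in 3w BM. Hist1h1a later gave 11.8, 11.98 and 11.8 FPKM in 4w BM, 11.9, 21.03 and 10.4 in 6w BM, and 10.2, 6.27 and 8.77 in 8w BM. E16.5 FL was above both its neighbours in time without overlap.

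Hist3h2a, an H2A gene on chromosome 11 (58954685 to 58956830, plus strand), had 13.2, 14.6 and 21.8 FPKM in E12.5 PL, 87.1, 64.5 and 59.9 in E12.5 FL, and 65.95, 72.2 and 58.3 in E16.5 FL. Hist3h2a then had 17.6, 22.9 and 31.9 FPKM in Perinatal BM, 24.6, 21.9 and 19.97 in 1w BM, and 32.04, 49.4 and 47.1 in 3w BM. At the older ages Hist3h2a had 50.4, 48.3 and 54.5 FPKM in 4w BM, 41.03, 51.5 and 45.8 in 6w BM, and 34.2, 26.3 and 39.3 in 8w BM. Both FL groups were above every other library. Hist1h2ac, another H2A gene (chromosome 13, 23681467 to 23683948, minus strand), had 3.85, 2.73 and 4.54 FPKM in E12.5 PL, 7.89, 5.88 and 3.095 in E12.5 FL, and 11.3, 8.94 and 12.8 in E16.5 FL. Hist1h2ac stood at 3.15, 0 and 4.03 FPKM in Perinatal BM, 11.2, 6.49 and 9.07 in 1w BM, and 18.8, 15.7 and 14.4 in 3w BM. Hist1h2ac ended with 24.4, 23.4 and 30.8 FPKM in 4w BM, 16.9, 15.5 and 13.8 in 6w BM, and 22.3, 11.6 and 8.89 in 8w BM. Perinatal BM was lowest, with 1 library listed at 0, and 4w BM was highest.

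Of the H3 genes, Hist1h3c had 6.59, 5.51 and 7.66 FPKM in E12.5 PL, 6.46, 9.498 and 6.55 in E12.5 FL, and 14.8, 10.99 and 17.2 in E16.5 FL. Next, Hist1h3c showed 4.804, 3.05 and 7.85 FPKM in Perinatal BM, 14.2, 15.5 and 13.9 in 1w BM, and 23.6, 14.4 and 23.9 in 3w BM. Older marrow gave Hist1h3c levels of 9.19, 18.5 and 12.1 FPKM in 4w BM, 6.78, 20.4 and 10.8 in 6w BM, and 9.55, 9.004 and 10.96 in 8w BM. The Perinatal BM libraries lay below all E16.5 FL and 1w BM libraries. Hist1h3e had 3.58, 1.03 and 7.56 FPKM in E12.5 PL, 3.75, 4.95 and 4.62 in E12.5 FL, and 10.4, 12.9 and 11.5 in E16.5 FL. Hist1h3e then had 6.07, 2.62 and 3.13 FPKM in Perinatal BM, 15.3, 12.9 and 10.1 in 1w BM, and 11.6, 13.3 and 15.9 in 3w BM. Hist1h3e later gave 20.6, 17.2 and 13.1 FPKM in 4w BM, 11.9, 13.8 and 10.4 in 6w BM, and 14.4, 8.05 and 13.8 in 8w BM. For Hist1h3e, too, the Perinatal BM libraries lay below all E16.5 FL and 1w BM libraries.

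Differences were tested with limma on log2(FPKM + 1) over all 27 libraries, and fold changes are on that scale, which understates the change of low genes. A first test asked whether a gene differed in any way along the 8 liver and marrow groups. By limma's moderated F-test, 52 of the 63 tested members differed among the 8 groups at an adjusted p under 0.05, against 74.8% of all 13350 genes tested. All 5 tested H1 and all 10 tested H3 genes passed, as did 10 of 13 H2A, 13 of 15 H2B, 7 of 12 H4 and 7 of 8 variant genes. The smallest adjusted p among the members was that of H1f0 (7.27e-11), followed by Hist2h2ac (3.36e-10) and Hist1h4m (4.18e-08). Among the 55 tested cluster genes, 29 had their lowest mean in Perinatal BM and 17 in E12.5 FL, while 21 had their highest in 3w BM and 14 in 4w BM.

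In E12.5 PL against E12.5 FL, the cluster gene Hist3h2ba and the variant H2afy had the largest log2 fold changes, both lower, while the median cluster gene was near 0. Of the 63 tested members 6 were higher and 13 lower, where 41.0% of all genes tested were higher and 33.2% lower. Among the variants, 2 were higher and 5 lower. H2afy fell to 159 ± 26.3 FPKM in E12.5 PL, against 993 ± 38.1 in E12.5 FL (SD, n = 3 each), a 6.26-fold difference (log2 fold change -2.65 ± 0.10 (SE), limma adjusted p = 4.04e-17). H1f0 rose to 118 ± 13.4 FPKM in E12.5 PL, against 53.5 ± 2.33 in E12.5 FL (log2 fold change 1.12 ± 0.09 (SE), limma adjusted p = 5.08e-11). H3f3b rose (log2 fold change 0.53 ± 0.16 (SE), limma adjusted p = 0.00398), whereas H3f3a, which encodes the same protein, fell (log2 fold change -0.66 ± 0.10 (SE), limma adjusted p = 2.27e-06).

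The 2 tested cluster genes of chromosome 11 were lower. Hist3h2ba, an H2B gene (58948920 to 58949533, plus strand), had 0.598, 0.338 and 0.916 FPKM in E12.5 PL, against 8.92, 9.996 and 10.9 in E12.5 FL, with no overlap (log2 fold change -2.77 ± 0.42 (SE), limma adjusted p = 3.18e-06). Hist3h2a fell as well (log2 fold change -2.04 ± 0.20 (SE), limma adjusted p = 3.38e-09), and so did Hist1h2bg (log2 fold change -1.94 ± 0.40 (SE), limma adjusted p = 0.000126). Hist2h2be, an H2B gene of chromosome 3, had 0.922, 0.689 and 0.532 FPKM in E12.5 PL and 5.52, 4.89 and 5.31 in E12.5 FL (log2 fold change -1.87, limma adjusted p = 3.12e-10). Of the 55 tested cluster genes 4 were higher and 8 lower, with a median log2 fold change of -0.02, against 0.06 over all genes. Hist1h3b was counted among the higher ones and was listed at 0 in all 3 E12.5 FL libraries, so no fold is given. Without E12.5 PL replicate 3, 3 members were higher.

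The marker sums given above moved with this comparison: 10 of 10 trophoblast, 8 of 8 endothelial and 6 of 7 stroma markers were higher in E12.5 PL, and 9 of 10 HSPC markers lower. Their part in the histone differences was not tested. Rpph1, the RNA of RNase P, is known to lack a poly(A) tail and was looked at after the histone values were seen; it had 119 to 231 FPKM in E12.5 PL, against 21.3 to 27.2 in E12.5 FL. The genes that act on histone mRNA differed too, with 2 of 15 higher and 9 lower. Slbp, whose protein binds the stem-loop, rose to 130.3 FPKM in E12.5 PL, against 88.6 FPKM in E12.5 FL (1.46-fold, limma adjusted p = 5e-07). Of 26 histone chaperone and deposition genes, 4 were higher and 18 lower. S phase genes were lower in 23 of 30 cases and higher in 4, and mitosis genes lower in 20 of 22 and higher in 2.

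In E16.5 FL against E12.5 FL the cluster genes were higher: 24 of the 55 tested passed the test upwards and 0 downwards. Their median log2 fold change was 0.89, against 0.01 over all genes, and 50 of the 55 fitted values were positive. With the variants, 26 of 63 members were higher and 1 lower, where 19.0% of all genes tested were higher and 15.6% lower. By class, 4 of 5 H1, 6 of 13 H2A, 6 of 15 H2B, 7 of 10 H3 and 1 of 12 H4 genes rose. Without E12.5 FL replicate 3, or without E16.5 FL replicate 2, 17 members were higher.

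Hist1h1a rose 3.68-fold, to 13.3 ± 1.16 FPKM in E16.5 FL, against 2.91 ± 0.528 in E12.5 FL (log2 fold change 1.88 ± 0.24 (SE), limma adjusted p = 5.22e-06). Hist1h2bb, an H2B gene (chromosome 13, 23746734 to 23747241, plus strand), had 13.7, 11.9 and 8.63 FPKM in E16.5 FL, against 4.78, 5.11 and 1.71 in E12.5 FL (log2 fold change 1.42 ± 0.37 (SE), limma adjusted p = 0.00486). Its libraries did not overlap, but the call was lost with a pseudocount of 0.1 (adjusted p = 0.0781). Hist1h2bk, also H2B, had 8.004, 5.03 and 9.93 FPKM in E16.5 FL and 2.87, 2.46 and 1.61 in E12.5 FL (log2 fold change 1.36 ± 0.32 (SE), limma adjusted p = 0.00239). Hist1h2bj rose in the same direction (log2 fold change 1.40 ± 0.34 (SE), limma adjusted p = 0.00265). Among H4 genes, Hist1h4m was the 1 that rose (log2 fold change 1.29 ± 0.27 (SE), limma adjusted p = 0.000705).

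Of the variants, H1fx and H3f3a rose and H2afz fell. H1fx reached 64.1 ± 2.44 FPKM in E16.5 FL, against 31.3 ± 3.45 in E12.5 FL (log2 fold change 1.01 ± 0.11 (SE), limma adjusted p = 4.32e-07). H2afz fell to 622 ± 57.4 FPKM in E16.5 FL, against 881 ± 45.5 in E12.5 FL (log2 fold change -0.50 ± 0.10 (SE), limma adjusted p = 0.000539).

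The genes of DNA replication moved the other way. Of the 30 listed S phase genes, 0 were higher and 19 lower in E16.5 FL, with a median log2 fold change of -0.23. The flap endonuclease gene Fen1 fell 1.59-fold (limma adjusted p = 1.17e-05) and Rrm2, a subunit of ribonucleotide reductase, 1.54-fold (limma adjusted p = 7.79e-05). Of 22 mitosis genes 10 were lower and 0 higher, among them the mitotic kinase gene Aurka (1.74-fold lower, limma adjusted p = 5.77e-06). The lists for chaperones and for histone mRNA showed 12 of 26 and 8 of 15 genes lower, with 1 and 2 higher. Slbp fell to 73.4 FPKM in E16.5 FL, against 88.6 in E12.5 FL (limma adjusted p = 0.00685), and Npat, a coactivator of histone gene transcription, rose to 13.3 FPKM, against 10.1 (limma adjusted p = 0.0122). All 7 B lineage markers, 6 of 7 neutrophil, 5 of 6 macrophage and 4 of 5 tested erythroid markers were also higher. The erythroid sum was 22.4 to 64.9 FPKM in E16.5 FL, against 6.04 to 32.01 in E12.5 FL, and the B lineage sum was 66.1 to 201 FPKM in E16.5 FL, against 22.1 to 26.5 in E12.5 FL. The part of these markers and of the relative depth given above in the result was not tested.

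**Figure D3:**
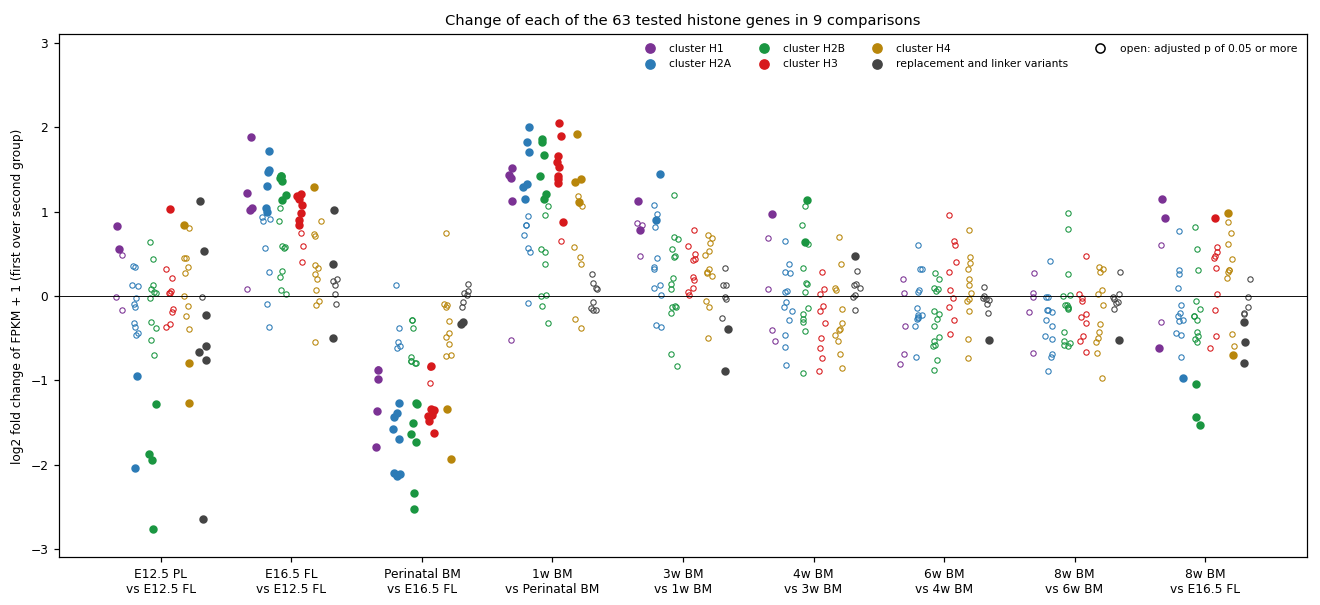
Log2 fold change of FPKM + 1 (vertical axis, first-named group over second) of the 63 tested histone genes in 9 comparisons (horizontal axis), coloured by class; filled points passed an adjusted p of 0.05 and open points did not. Cluster genes lie mostly above 0 in E16.5 FL against E12.5 FL and in 1w BM against Perinatal BM, and mostly below 0 in Perinatal BM against E16.5 FL, while in those comparisons the variants lie between -0.50 and 0.38, apart from H1fx at 1.01 in E16.5 FL against E12.5 FL.

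In Perinatal BM against E16.5 FL the cluster genes were lower: 29 of 55 fell and 0 rose, with a median log2 fold change of -0.99, against 0.00 over all genes. With the variants, 31 of 63 members were lower and 0 higher, where 14.2% of all genes tested were lower and 14.2% higher. By class, 4 of 5 H1, 8 of 13 H2A, 7 of 15 H2B and 8 of 10 H3 genes were lower. In the H4 class 2 of 12 were, a share near that of all genes. When only the 6 libraries compared were fitted, 16 members were lower, and Hist1h2bg and Hist1h2ac lost their calls (adjusted p = 0.0654 and 0.0777).

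Hist1h2bb had 1.35, 0 and 3.05 FPKM in Perinatal BM, against 13.7, 11.9 and 8.63 in E16.5 FL (log2 fold change -2.53 ± 0.37 (SE), limma adjusted p = 2.74e-05). Hist1h2ak, an H2A gene, had 3.196, 0 and 1.205 FPKM in Perinatal BM and 7.04, 9.36 and 8.52 in E16.5 FL (log2 fold change -2.14 ± 0.39 (SE), limma adjusted p = 0.000314). In both genes the groups did not overlap and Perinatal BM replicate 2 was listed at 0. Hist1h2bg fell 5.06-fold and Hist1h2ac 4.31-fold (limma adjusted p = 0.000135 and 0.000502). Hist2h2ac, an H2A gene of chromosome 3 (96220361 to 96220880, minus strand), had 0.739, 0 and 0.315 FPKM in Perinatal BM, against 3.05, 6.55 and 4.89 in E16.5 FL (log2 fold change -2.10 ± 0.24 (SE), limma adjusted p = 9.9e-07). Of the variants, H3f3a (1.24-fold) and H2afx (1.26-fold) fell, with overlapping libraries.

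A variant outside the rule moved in the opposite direction. H2afj, which encodes H2A.J, rose to 103 FPKM in Perinatal BM, against 50.5 FPKM in E16.5 FL (2.02-fold, limma adjusted p = 5.97e-06). Cenpa, the histone H3 variant of centromeres, fell to 89.8 FPKM in Perinatal BM, against 117 FPKM in E16.5 FL (limma adjusted p = 0.0033). Of the 22 mitosis genes 18 were lower and 0 higher, among them Hmmr, a spindle protein gene (2.16-fold lower, limma adjusted p = 1.83e-08), and the kinase gene Plk1 (1.83-fold lower, limma adjusted p = 3.53e-07). Of the 30 S phase genes 2 were lower and 2 higher, with a median log2 fold change of -0.06. Slbp had 72.6 FPKM in Perinatal BM and 73.4 FPKM in E16.5 FL, which did not pass the test (limma adjusted p = 0.919).

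All 8 mast cell markers were higher in Perinatal BM. Their sum was 3200.2, 1510.0 and 3973 FPKM in Perinatal BM replicates 1 to 3, against 94.9, 63.2 and 53.2 in E16.5 FL. The library with the highest mast cell sum, replicate 3, also had the highest cluster gene sum of its group, and the library with the lowest, replicate 2, had the lowest. The B lineage sum (29.8, 24.9 and 65.8 FPKM in replicates 1 to 3) and relative depth (0.824, 0.779 and 1) had the same order. The neutrophil sum (2313, 2343 and 1011 FPKM) had the reverse order. These orders rest on 3 libraries and were not tested. All 7 B lineage markers were lower, with a sum of 24.9 to 65.8 FPKM in Perinatal BM, against 66.1 to 201 in E16.5 FL. Of the other lists, 5 of 8 endothelial and 2 of 5 tested erythroid markers were lower and 0 higher. Of the 6 macrophage markers 3 were lower and 1 higher, and of the 7 neutrophil markers 2 were lower and 1 higher. HSPC markers were higher in 2 of 10 cases and stroma markers in 1 of 7, with 0 lower in either list. The gene Gata2 is in both the HSPC and the mast cell lists, so its rise is counted in both. The part of these markers in the histone result was not tested.

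In 1w BM against Perinatal BM 29 of the 55 tested cluster genes rose and 0 fell, with a median log2 fold change of 1.12, against -0.001 over all genes. No variant passed the test, so 29 of 63 members were higher and 0 lower, where 8.60% of all genes tested were higher and 8.97% lower. The H3 class had 9 of 10 genes higher, H1 had 4 of 5, H2A 6 of 13, H2B 6 of 15 and H4 4 of 12. With only the 6 libraries compared, 10 members were higher, and the calls of Hist1h3i, Hist1h2ak, Hist1h2bb and Hist1h2ac were lost (adjusted p 0.0516 to 0.148).

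Hist1h3i, an H3 gene, had 8.19, 3.07 and 5.16 FPKM in 1w BM, against 0.395, 0 and 1.35 in Perinatal BM (log2 fold change 2.04 ± 0.40 (SE), limma adjusted p = 0.00123). Hist1h2ak had 8.18, 6.09 and 8.05 FPKM in 1w BM and 3.196, 0 and 1.205 in Perinatal BM (3.99-fold, limma adjusted p = 0.00129). Hist1h2bb had 7.57, 6.18 and 6.47 FPKM in 1w BM and 1.35, 0 and 3.05 in Perinatal BM (log2 fold change 1.86 ± 0.37 (SE), limma adjusted p = 0.00131). In these 3 genes every 1w BM library was above every Perinatal BM library. Hist1h2ac rose 3.53-fold and Hist1h1a 2.64-fold (limma adjusted p = 0.00355 and 0.000434). Hist4h4, the cluster gene of chromosome 6, also rose and was listed at 0 in all 3 Perinatal BM libraries, against 0.714, 1.89 and 1.04 FPKM in 1w BM. Not every abundant cluster gene took part: Hist1h1c averaged 17.6 ± 0.519 FPKM in 1w BM and 26.7 ± 9.99 in Perinatal BM, with a log2 fold change of -0.52 (limma adjusted p = 0.215). Hist1h2bc averaged 28.3 ± 4.52 FPKM in 1w BM and 29.9 ± 14.2 in Perinatal BM (limma adjusted p = 0.999).

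The cell cycle lists moved upwards in this step, with 18 of 22 mitosis genes and 11 of 30 S phase genes higher and 0 lower in either list. Plk1 rose 1.83-fold and Tyms, the thymidylate synthase gene, 1.41-fold (limma adjusted p = 6.25e-07 and 0.000256). Of the chaperone genes 6 of 26 were higher, and of the histone mRNA genes 3 of 15. Slbp (limma adjusted p = 0.839) and Npat (limma adjusted p = 0.0822) did not pass. The mast cell sum was 149, 201 and 209 FPKM in 1w BM, against 3200.2, 1510.0 and 3973 in Perinatal BM, and 7 of 8 of its markers were lower. Of the other lists, 3 of 10 HSPC markers were lower and 1 higher, and 2 of 6 macrophage markers were higher and 1 lower. Of the neutrophil markers 1 of 7 was higher, while 1 of 8 endothelial and 1 of 7 stroma markers were lower. The part of these markers in the histone rise was not tested. 

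Over these 3 consecutive comparisons, 17 members were higher, then lower, then higher, as were 68 of all 13350 genes tested (0.509%). These were 3 H1 genes (Hist1h1a, Hist1h1b, Hist1h1d), 4 H2A, 3 H2B and 6 H3 genes, and 1 H4 gene. Another 6 members were lower and then higher without passing in the first comparison, as were 2.36% of all genes, and 19 passed in none of the 3, as did 44.1% of all genes. Neighbouring comparisons share a group, so a high or low group moves both of them. Of the 12 tested H4 genes, 8 passed in none.

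**Figure D4:**
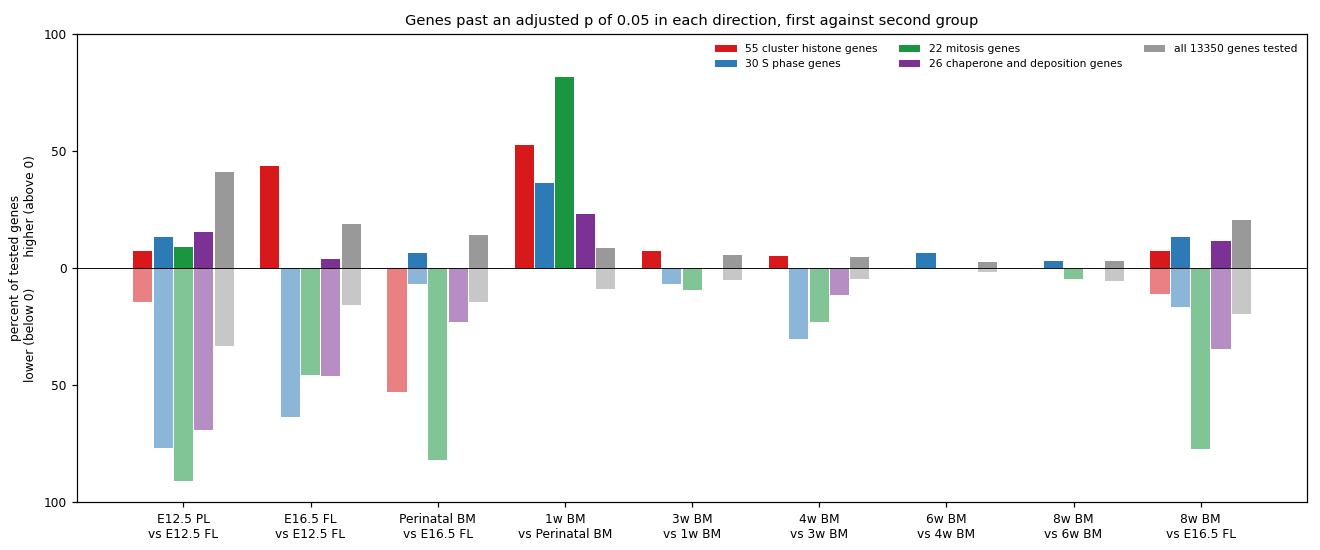
Percent of tested genes past an adjusted p of 0.05 (vertical axis; higher above 0, lower below 0 in paler colour) in 9 comparisons (horizontal axis) for 4 gene lists and all 13350 genes tested. In E16.5 FL against E12.5 FL the cluster histone genes were called higher (24 of 55) and the S phase genes lower (19 of 30), while in 1w BM against Perinatal BM both lists were called higher only.

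From 1w BM on, few members passed between neighbouring ages. In 3w BM against 1w BM, 4 members rose and 2 fell, where 5.69% of all genes tested were higher and 4.76% lower. The median of the cluster genes was 0.34 on the log2 scale, and 44 of 55 fitted values were positive. Hist2h2ac had 10.6, 10.4 and 11.2 FPKM in 3w BM, against 3.34, 4.35 and 2.45 in 1w BM, without overlap (log2 fold change 1.45 ± 0.24 (SE), limma adjusted p = 0.000372). Hist1h1c rose to 39.7 ± 4.78 FPKM in 3w BM, against 17.6 ± 0.519 in 1w BM (log2 fold change 1.12 ± 0.28 (SE), limma adjusted p = 0.0121), and Hist3h2a rose 1.87-fold (limma adjusted p = 0.0056). The call of Hist1h1a (limma adjusted p = 0.0451) was lost with a pseudocount of 0.1, with no filter, with a replicate block, without 1w BM replicate 2 or 3, and without any 1 of the 3w BM libraries (adjusted p 0.0568 to 0.15).

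The 2 members that fell were the variant linker histones. H1f0 fell to 28.3 ± 1.94 FPKM in 3w BM, against 53.2 ± 3.18 in 1w BM (log2 fold change -0.89 ± 0.09 (SE), limma adjusted p = 7.01e-07). H1fx fell to 49.3 ± 3.31 FPKM, against 64.96 ± 0.148 (limma adjusted p = 0.0233), a call lost without 1w BM replicate 1, 2 or 3 or without 3w BM replicate 2 or 3 (adjusted p 0.058 to 0.0972). Of the S phase genes 2 of 30 and of the mitosis genes 2 of 22 were lower, and 0 of either list higher. Of the cell type markers 5 of 7 neutrophil, 3 of 8 mast cell and 3 of 8 endothelial markers were lower, and 3 of 6 macrophage and 2 of 7 B lineage markers higher. The neutrophil sum was 2338 to 2529 FPKM in 3w BM, against 2840.2 to 4372 in 1w BM, and the macrophage sum 50.3 to 59.7 FPKM in 3w BM, against 28.7 to 43.6 in 1w BM. The part of these markers was not tested.

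In 4w BM against 3w BM, 4 members rose and 0 fell, where 4.72% of all genes tested were higher and 4.56% lower. H1f0 rose to 39.8 ± 2.46 FPKM in 4w BM, against 28.3 ± 1.94 in 3w BM (log2 fold change 0.48 ± 0.09 (SE), limma adjusted p = 0.00286). Hist1h1c rose to 79.1 ± 14.1 FPKM in 4w BM, against 39.7 ± 4.78 in 3w BM (log2 fold change 0.97 ± 0.28 (SE), limma adjusted p = 0.0311). Hist2h2be had 6.47, 6.17 and 5.97 FPKM in 4w BM and 3.85, 4.38 and 2.82 in 3w BM (limma adjusted p = 0.0168), and the fourth was Hist1h2bf. Without any 1 of 3w BM replicates 1 and 3 and 4w BM replicates 1 and 3, 1 member was called, and without 4w BM replicate 2, 2 were. Hist1h1c lost its call in each of those 5 fits and Hist2h2be in the first 4 (adjusted p 0.0502 to 0.106). S phase genes were lower in 9 of 30 cases, among them the replication licensing genes Cdt1 and Cdc6 (1.31-fold and 1.46-fold lower), and mitosis genes in 5 of 22. B lineage markers were lower in 5 of 7 cases and neutrophil markers in 3 of 7, while 3 of 8 endothelial markers were higher; their part was not tested.

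In 6w BM against 4w BM, H1f0 was the 1 member of 63 that passed, where 1.35% of all genes tested were lower and 2.59% higher. It fell to 27.4 ± 2.03 FPKM in 6w BM, against 39.8 ± 2.46 in 4w BM (log2 fold change -0.53 ± 0.09 (SE), limma adjusted p = 0.00118). H1 cluster genes were uneven in 6w BM: their sum was 60.9, 131 and 69.9 FPKM in its 3 libraries, with replicate 2 the highest. Without that library 3 members were lower. In 8w BM against 6w BM, H3f3b alone passed, where 5.21% of all genes tested were lower and 2.97% higher. It had 504, 465 and 755 FPKM in 8w BM and 695, 1065 and 718 in 6w BM, which overlap (limma adjusted p = 0.0387). The call was lost without 6w BM replicate 2 or without 8w BM replicate 1 or 2 (adjusted p 0.167 to 0.309), and without 6w BM replicate 1, 1 member was higher. All 6 macrophage markers were higher, with a sum of 96.5 to 146 FPKM in 8w BM, against 46.04 to 53.5 in 6w BM; their part was not tested.

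The oldest marrow was also set against late fetal liver. In 8w BM against E16.5 FL, 4 members rose and 9 fell, where 20.5% of all genes tested were higher and 19.7% lower. The median cluster gene had a log2 fold change of -0.10, against 0.00 over all genes, and the 55 values ran from -1.53 to 1.14. Without E16.5 FL replicate 3, 2 members were higher. The H1 genes differed among themselves. Hist1h1e, which encodes H1.4, had 6.39, 8.84 and 10.8 FPKM in 8w BM, against 3.09, 3.98 and 2.88 in E16.5 FL (log2 fold change 1.14 ± 0.33 (SE), limma adjusted p = 0.00847). Hist1h1d, which encodes H1.3, had 9.47, 7.36 and 15.8 FPKM in 8w BM and 4.68, 4.69 and 5.63 in E16.5 FL (log2 fold change 0.93 ± 0.32 (SE), limma adjusted p = 0.0252). Both were higher in 8w BM without overlap, while Hist1h1a was lower (log2 fold change -0.62 ± 0.24 (SE), limma adjusted p = 0.0471). The call of Hist1h1d was lost with a pseudocount of 0.1 (adjusted p = 0.0573) and without E16.5 FL replicate 1 or 2 or 8w BM replicate 3 (adjusted p 0.0655 to 0.154).

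Hist1h3g, an H3 gene, had 7.23, 6.78 and 6.97 FPKM in 8w BM and 3.15, 4.95 and 2.01 in E16.5 FL (log2 fold change 0.93 ± 0.29 (SE), limma adjusted p = 0.013), and lost its call without E16.5 FL replicate 3 (adjusted p = 0.0874) or with a pseudocount of 0.1 (adjusted p = 0.134). Hist1h2bc fell 2.72-fold to 35.3 ± 10.003 FPKM in 8w BM, against 96.7 ± 21.6 in E16.5 FL (log2 fold change -1.44 ± 0.25 (SE), limma adjusted p = 7.46e-05). The pair on chromosome 11 was lower too: Hist3h2a fell 1.96-fold and Hist3h2ba 2.89-fold (limma adjusted p = 0.000517 and 0.00581). The call of Hist3h2ba was lost without 8w BM replicate 3 (adjusted p = 0.0531). Among the variants H1f0, H1fx and H3f3a fell, and H1f0 moved most (log2 fold change -0.79 ± 0.09 (SE), limma adjusted p = 1.89e-07). Cenpa fell to 67.5 FPKM in 8w BM, against 117 FPKM in E16.5 FL (1.73-fold, limma adjusted p = 5.01e-07), and H2afj rose 1.51-fold (limma adjusted p = 0.000872). Of 22 mitosis genes 17 were lower and 0 higher, and of 30 S phase genes 5 were lower and 4 higher. All 7 B lineage markers, 5 of 7 neutrophil and 6 of 8 endothelial markers were lower, while 2 neutrophil markers and 1 endothelial marker were higher. Of the 6 macrophage markers 5 were higher and 0 lower. Mast cell markers were mixed, with 4 of 8 higher and 3 lower, as were HSPC markers, with 3 of 10 higher and 2 lower. The B lineage sum was 19.7 to 22.4 FPKM in 8w BM, against 66.1 to 201 in E16.5 FL, and the macrophage sum 96.5 to 146 FPKM in 8w BM, against 40.7 to 47.7 in E16.5 FL. The neutrophil sum was 1729 to 2058 FPKM in 8w BM, against 729.7 to 1534 in E16.5 FL, so it was higher although most of its markers were lower. The part of these markers was not tested.

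In the 3 consecutive comparisons from E12.5 FL to 1w BM, cluster genes that passed the test did so in 1 direction in each group of annotated 3′ ends; in E12.5 PL against E12.5 FL and in 8w BM against E16.5 FL directions were mixed. In E16.5 FL against E12.5 FL, 6 of 20 tested genes with at least 100 bases after the stem-loop rose, as did 10 of 17 with fewer and 8 of 18 with no stem-loop in the annotated transcript. In Perinatal BM against E16.5 FL, 9 of 20, 11 of 17 and 9 of 18 fell. In 1w BM against Perinatal BM, 9 of 20, 12 of 17 and 8 of 18 rose. Differences between these shares were not tested. All 3 RNAs known to lack a poly(A) tail that were looked at, chosen after the values were seen, were lower by mean in E16.5 FL than in E12.5 FL, higher in Perinatal BM than in E16.5 FL, and lower in 1w BM than in Perinatal BM; these differences were not tested. Rmrp, the RNA of an RNA-processing enzyme, had 4.01 to 10.1 FPKM in E12.5 FL, 0 to 7.29 in E16.5 FL, 1.56 to 47.4 in Perinatal BM and 0 to 10.5 in 1w BM. Rpph1 had 21.3 to 27.2 FPKM in E12.5 FL, 0.795 to 9.52 in E16.5 FL, 1.49 to 21.4 in Perinatal BM and 3.42 to 16.4 in 1w BM. The ribosomal RNA precursor Rn45s had 274 to 461 FPKM in E12.5 FL, 151 to 548 in E16.5 FL, 401 to 1082 in Perinatal BM and 234 to 869.6 in 1w BM. Libraries of neighbouring groups overlapped, except for Rpph1 in E16.5 FL against E12.5 FL. Some of these means differed little or rested on 1 library. Mean Rn45s was 387 FPKM in E12.5 FL and 374 in E16.5 FL, and Rmrp had 7.24, 47.4 and 1.56 FPKM in the Perinatal BM libraries.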

How the data were processed

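RNA from cells given as purified HSPCs was sequenced in 27 libraries, 9 groups of 3. The authors deposited 1 matrix of FPKM values per gene; Trim Galore, FastQC, STAR 2.7, HTSeq 0.6.1p1 and GRCm38 are named per the submitters' processing notes, and how FPKM was computed from counts is not given in the sources used here. Depth is unknown, so no counting error was computed.

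Genes with at least 1 FPKM in at least 3 libraries (13350) were tested with limma 3.58.1 (R 4.3.3) on log2(FPKM + 1): a mean per group, moderated with a trend, Benjamini-Hochberg adjustment over all genes tested and a threshold of 0.05, two-sided. FPKM are not counts, so no count model was used. The fit was tested on simulated data.

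Members and gene lists were chosen with earlier results of these data known. Values in every library are given for the 8 variants and the 10 cluster genes with the highest mean; for each comparison, up to 4 called members per direction with the largest fold and a mean of at least 5 FPKM in the higher group are named. Other members are named where a count turns on them. Of other genes, up to 4 per list and comparison with the smallest adjusted p are named, besides Slbp, Npat and Cenpa. Rmrp, Rpph1 and Rn45s were picked with all values in view.

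The fit was repeated with a pseudocount of 0.1, with the filter dropped or set to 5 FPKM, with median-of-ratios scaling, with a replicate block, on only the 6 libraries compared, and leaving out the E12.5 PL libraries or each library in turn. Leaving out E12.5 PL for the F-test was added after the data were seen. Annotation was read from GENCODE release 21 for mouse and RefSeq.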

Additional observations from a re-analysis of the deposited data

How the results depend on the processing

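Signs were checked for the 8 variants, the 10 cluster genes with the highest mean and the called members named by the rule above. None of their fold changes that passed the test changed sign under any alternative run. Of the 171 that did not pass, 58 changed sign under at least 1. Members named for other reasons, such as Hist1h4m, Hist4h4, Hist1h3b and Hist1h2bf, were not in this check. The direction of the calls turned where noted here for 4w BM against 3w BM and 8w BM against 6w BM. With only the 6 libraries compared, 16 members were lower in Perinatal BM against E16.5 FL (31 in the full fit), 10 were higher in 1w BM against Perinatal BM (29) and 9 in 3w BM against 1w BM (4), 2 were lower in E16.5 FL against E12.5 FL (1), 0 were higher and 1 lower in 4w BM against 3w BM (4 and 0), 0 were lower in 6w BM against 4w BM (1), and 0 were lower in 8w BM against 6w BM (1). That fit has fewer samples. With no filter, 2 were higher in 4w BM against 3w BM and 0 lower in 8w BM against 6w BM. With a filter at 5 FPKM, which tests fewer genes, 1 was lower in 4w BM against 3w BM and 1 higher in 8w BM against 6w BM. With a pseudocount of 0.1, 1 was higher in 8w BM against 6w BM and 2 in 8w BM against E16.5 FL. Without the E12.5 PL libraries, 1 was higher and 0 lower in 8w BM against 6w BM. Beyond the counts of samples and genes named here, the cause was not tested.

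The replicate numbers recur in all groups, but same-numbered libraries had residual correlations of -0.205 to 0.227 (median -0.0106), and 8 of 27 libraries correlated best with their own number. The labels do not say what the number marks, and these values cannot show whether same-numbered libraries were handled together. With the replicate block, 0 members were lower in 8w BM against 6w BM, and every other count stayed within 1.5 times. Median-of-ratios scaling moved the median of all genes by at most 0.011 (log2).

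Leaving out 1 library at a time gave 3 to 6 higher and 12 to 13 lower in E12.5 PL against E12.5 FL. It gave 17 to 25 higher and 1 lower in E16.5 FL against E12.5 FL, 0 to 1 higher (1 without Perinatal BM replicate 1) and 25 to 35 lower in Perinatal BM against E16.5 FL, and 20 to 31 higher and 0 lower in 1w BM against Perinatal BM. It gave 3 to 5 higher and 1 to 2 lower in 3w BM against 1w BM (1 lower without 1w BM replicate 1 or 3 or 3w BM replicate 2 or 3), 1 to 4 higher and 0 lower in 4w BM against 3w BM, and 0 higher and 1 to 3 lower in 6w BM against 4w BM. It gave 0 to 1 higher and 0 to 1 lower in 8w BM against 6w BM, 2 to 5 higher and 6 to 9 lower in 8w BM against E16.5 FL, and 48 to 54 members past the F-test. Low cluster genes rest on few reads of unknown number, and shared sequence leaves the split among copies uncertain.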
